A study of Mus musculus with 8 samples.

Results

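Genes for 8 enzymes that lengthen and desaturate fatty acids were followed in db/db mouse liver after treatment with AF1 peptide. They were the fatty acid desaturase genes Fads1, Fads2, Fads3 and Fads6 and the elongase genes Elovl1, Elovl2, Elovl3 and Elovl5, taken by symbol from the 21532 genes of the deposited expression table. All 8 had a mean normalized read count of at least 10 over the mice and were tested, with 15989 of all genes. Both groups were livers of male db/db mice, 4 mice each, and all carried the leptin receptor mutation that makes these animals obese and diabetic. The AF1 peptide group received a short peptide from the activation function-1 part of estrogen receptor α, joined to a TAT sequence that carries it into cells, at 5 mg per kg body weight, 2 injections per week for 5 weeks, while the other group received the control treatment. The comparison asks what the peptide did to transcripts in the liver of these animals, and the age in the methods was 8 weeks at the start.

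Mammals cannot make linoleic or α-linolenic acid, and the liver turns these dietary fatty acids into arachidonic, eicosapentaenoic and docosahexaenoic acid by alternating desaturation and elongation. FADS2 inserts the first double bond, ELOVL5 adds carbons, FADS1 inserts the next double bond, and ELOVL2 extends the products toward docosahexaenoic acid. The genes of this route are known targets of SREBP1 and PPARα in the liver. FADS3 acts on sphingoid bases, ELOVL1 and ELOVL3 lengthen saturated and monounsaturated acyl chains, and FADS6 is a related protein whose reaction is not settled.

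The promoters of Elovl5, Elovl2 and Fads2 are shown because Elovl5 and Elovl2 had the lowest unadjusted p-values of the 8 genes beside Fads1, and Fads2 encodes the entry step. They come from RefSeq on GRCm38.p6, an earlier build than the mm39 of the submitters' processing notes, and run 5′ to 3′ on the gene's strand from 250 bases before the start to 25 bases after it. Capitals mark motifs searched on both strands, namely CACGTG (E-box), CCAAT (which reads ATTGG on the other strand), TGACGTCA (CRE), AGGTCA (nuclear receptor site), TCACNCCAC (a form of the sterol regulatory element) and GGGCGG (GC box). The windows are chr9:77917115-77917389 on the plus strand for Elovl5, chr13:41220379-41220653 on the minus strand for Elovl2 and chr19:10101479-10101753 on the minus strand for Fads2.
Elovl5: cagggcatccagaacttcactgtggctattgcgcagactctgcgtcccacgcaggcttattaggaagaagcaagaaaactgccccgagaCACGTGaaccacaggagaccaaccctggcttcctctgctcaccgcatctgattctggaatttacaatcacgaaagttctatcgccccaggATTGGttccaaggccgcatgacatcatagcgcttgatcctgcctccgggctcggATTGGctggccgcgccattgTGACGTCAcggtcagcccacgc
Elovl2: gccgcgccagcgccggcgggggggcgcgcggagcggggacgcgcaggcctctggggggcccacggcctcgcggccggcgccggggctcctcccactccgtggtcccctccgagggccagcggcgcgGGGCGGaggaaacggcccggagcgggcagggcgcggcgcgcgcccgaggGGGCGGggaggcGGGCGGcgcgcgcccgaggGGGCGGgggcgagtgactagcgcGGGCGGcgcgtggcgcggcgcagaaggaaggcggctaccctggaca
Fads2: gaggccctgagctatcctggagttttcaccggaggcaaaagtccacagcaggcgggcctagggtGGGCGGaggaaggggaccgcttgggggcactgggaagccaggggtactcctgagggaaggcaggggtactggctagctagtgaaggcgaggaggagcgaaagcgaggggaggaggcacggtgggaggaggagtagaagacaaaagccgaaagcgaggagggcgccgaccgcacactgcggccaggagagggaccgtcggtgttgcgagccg

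The Elovl5 window held an E-box 161 bases before the start, a motif found in 7.15% of 32851 mouse promoters of 300 bases, and a CRE 3 bases after it, found in 1.79%. It also held CCAAT boxes 71 and 17 bases before the start, a motif in 37.4% of promoters. The Elovl2 window held 5 GC boxes and the Fads2 window 1, and 35.7% of promoters held at least 1. RefSeq lists another Elovl2 start, whose window (chr13:41220113-41220412, minus strand) held none of these motifs. The letters of the sterol element were not in these 3 windows, and 1.24% of all promoters held them. A match in these letters is a description and not a binding site. The promoters of Fads1 and Elovl3 were not analysed here.

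Values were normalized read counts, that is, reads per gene divided by 1 size factor for each library, and the libraries held 23031880 to 45117528 reads. AF1 peptide replicate 1 stood apart from the other libraries, at -74.2 on the leading principal component of the tested genes (39.3% of the variance), while the other 7 mice lay between -2.33 and 21.8. It was the lowest of the 8 mice in 4 of the 8 genes (Fads2, Fads3, Elovl3 and Elovl5) and the highest in Fads6, so the fold changes of the 8 genes are given with and without it. Hepatocyte markers were led by Alb, with a summed count of 2563600 to 2752100 in controls and 1953500 to 2720300 in AF1 peptide mice. The low end was AF1 peptide replicate 1. Alb made up most of that low sum, at 1224000, and not every hepatocyte marker was low in that mouse. The median log2 fold change of the list was -0.09 with all mice and -0.13 without that mouse. That mouse also had the lowest sum of its group for Kupffer cell and macrophage markers (3128, with 6849 to 8528 in controls), adipocyte markers (1463, with 4838 to 6009 in controls), and endothelial, stellate, biliary, lymphocyte and red blood cell markers. Single genes could differ from these sums. Stab2, the most abundant endothelial marker, was highest of the 8 mice in AF1 peptide replicate 1, at 1954, with 1543 to 1851 in controls. Of these lists, Kupffer cell and stellate cell markers each had 1 tested gene lower at an unadjusted p under 0.05 (10 tested genes in each list), and no other marker list had a gene past it. Without AF1 peptide replicate 1 the Kupffer cell list had 0 lower and 1 higher, and the stellate cell list 1 lower and 1 higher. Over all tested genes 3.03% were lower with all mice. Without that mouse 5.48% were lower and 732 of 15989 were higher. Adipoq, Plin1 and Lep, which define adipocytes, were not analysed here, and exocrine pancreas was represented by 1 tested gene. Mitochondrial transcripts took 22.6% to 34.7% of reads in controls and 21.1% to 38.2% in AF1 peptide mice. What part these differences have in the results was not tested.

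Across the 8 genes, 3 were lower in AF1 peptide mice at an unadjusted p under 0.05 (Elovl2, Elovl5 and Fads1, limma on log2(count + 1), 4 mice against 4), and 0 were higher. Over all 15989 tested genes the same threshold called 3.03% lower and 3.16% higher, or 6.19% in either direction. With a fold change over 1.3 required as well, 2 of the 8 (Elovl2 and Elovl5) were lower, against 1.9% of all tested genes. After Benjamini-Hochberg adjustment over all tested genes none of the 8 passed 0.05, with adjusted limma p from 0.763 to 0.934, and 0 of all tested genes passed it. DESeq2 gave the same 3 genes below an unadjusted 0.05 and edgeR gave Elovl2 alone. Over all genes DESeq2 called 446 of 15962 lower at that threshold and edgeR 479 of 15989. Their smallest adjusted p-values among the 8 were 0.613 and 0.751. Log2 fold changes were below 0 in 7 of the 8, with a median of -0.33, while 51.8% of all tested genes were below 0 and their median was -0.01. Without AF1 peptide replicate 1 the count was 2 (Elovl2 and Elovl5), against 5.48% of all genes called lower, and the median over the 8 was -0.21.

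**Figure D1:**
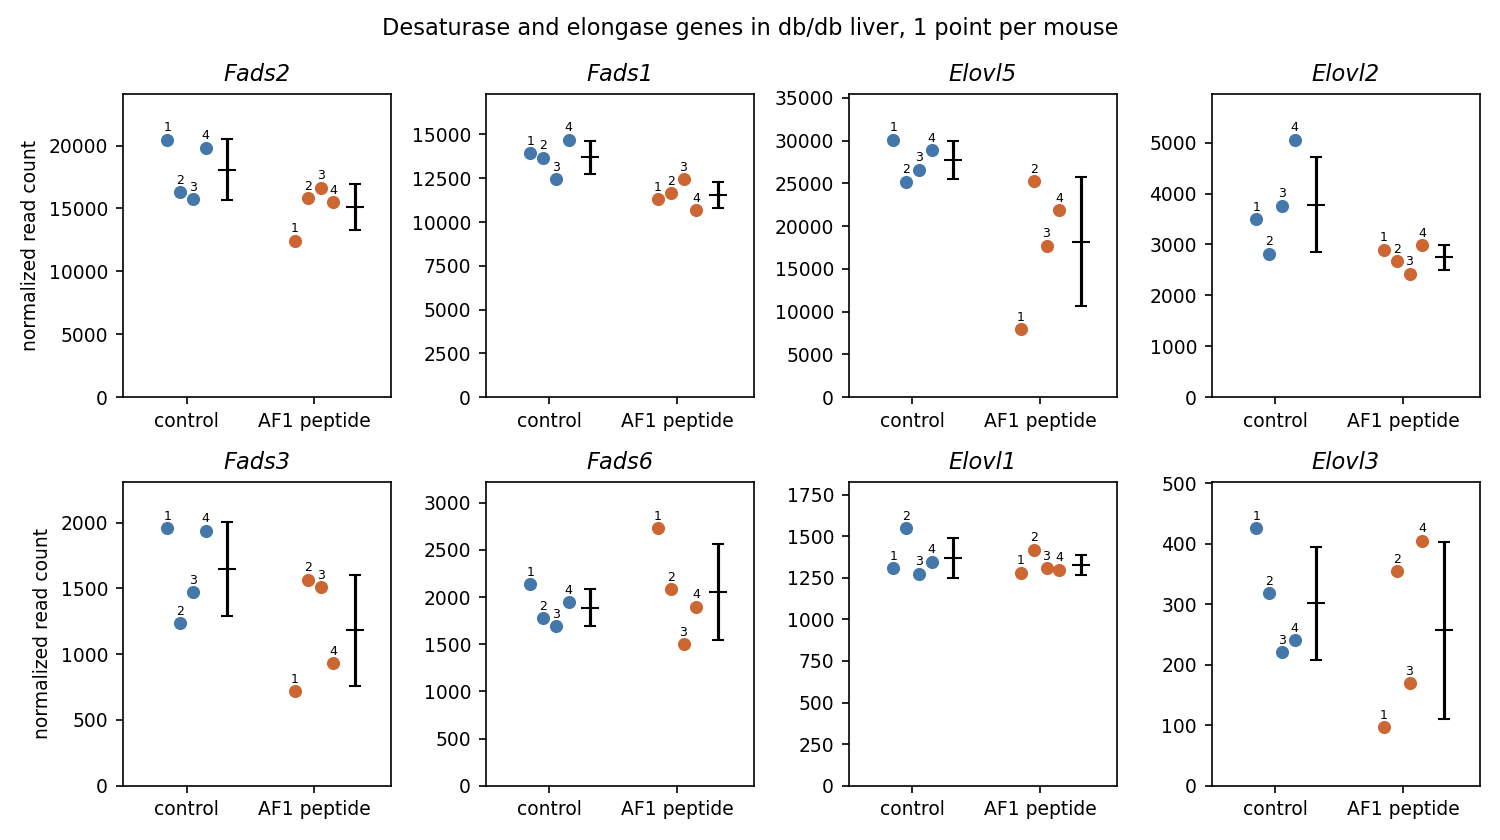
Normalized read counts of each desaturase and elongase gene, 1 point per mouse numbered by replicate, for control (blue) and AF1 peptide (orange), each panel on its own linear axis from 0 with the mean and SD of 4 mice beside the points. Elovl5 shows AF1 peptide replicate 1 at 7920 with its group mates between 17740 and 25247, and Fads1 shows groups that meet at 12448 and 12453 without crossing.

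Elovl5, the elongase that acts between both desaturation steps, had the lowest mean relative to control among the 8. Its counts were 30106, 25212, 26602 and 28894 in control livers and 7920, 25247, 17740 and 21885 in AF1 peptide livers. The controls were close together and 3 of the 4 AF1 peptide mice lay below all of them, the exception being AF1 peptide replicate 2, which sat just above the lowest control. The mean fell from 27704 ± 2207 to 18198 ± 7509 (SD, n = 4), and the log2 fold change was -0.73 (SE 0.31, 95% interval -1.41 to -0.05, unadjusted limma p = 0.0383, adjusted p = 0.763, exact permutation p = 0.0571). The permutation test was two-sided on the mean log2 count, and 0.0286 is the smallest p that 4 mice against 4 allow. Without AF1 peptide replicate 1 the log2 fold change was -0.37 with an unadjusted limma p of 0.0265. The call was lost without any 1 of the 4 controls or without AF1 peptide replicate 3, with unadjusted limma p from 0.0537 to 0.0799 and log2 fold changes from -0.69 to -0.77.

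Elovl2 encodes the elongase needed for the longest polyunsaturated chains. It had counts of 3502, 2821, 3761 and 5057 in controls and 2897, 2667, 2424 and 2992 in AF1 peptide mice. The AF1 peptide values were tightly grouped and the control values spread, and the groups overlapped only through control replicate 2, at 2821, which lay below AF1 peptide replicates 1 and 4. The means were 3785 ± 936 and 2745 ± 254, a log2 fold change of -0.44 (SE 0.16, 95% interval -0.80 to -0.08, unadjusted limma p = 0.0217, adjusted p = 0.763, exact permutation p = 0.0857). AF1 peptide replicate 1 did not carry this difference, which without it was -0.46 with an unadjusted limma p of 0.0171. Without control replicate 4, the highest of the 8 mice, it was -0.29 with an unadjusted limma p of 0.0546, and without AF1 peptide replicate 3 it was -0.38 with 0.0581.

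Fads1 encodes the desaturase that makes arachidonic and eicosapentaenoic acid. Its counts were 13945, 13677, 12453 and 14694 in controls and 11309, 11644, 12448 and 10675 in AF1 peptide mice. Every AF1 peptide mouse lay below every control, but only just, since control replicate 3 and AF1 peptide replicate 3 were nearly equal. It was the 1 gene of the 8 whose groups did not overlap in this direction, against 1.85% of all tested genes, and 0 of the 8 were separated in the other direction, against 2.05%. The means were 13692 ± 932 and 11519 ± 738, with a log2 fold change of -0.25 (SE 0.11, 95% interval -0.49 to -0.01, unadjusted limma p = 0.0431, adjusted p = 0.763, exact permutation p = 0.0286). The change was small and steady, -0.24 without AF1 peptide replicate 1. The call was lost in the absence of any 1 of control replicates 1, 2 and 4 or AF1 peptide replicates 1, 2 and 4. The unadjusted limma p then rose above 0.05, with values from 0.0507 to 0.117. Under TMM factors or equal library totals the Fads1 groups overlapped, and Elovl5 became the gene without overlap. Of all tested genes, 1.92% were lower without overlap under TMM factors and 2.86% under equal totals.

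Fads2, the first enzyme of the route, had counts of 20454, 16302, 15747 and 19837 in controls and 12443, 15804, 16644 and 15490 in AF1 peptide mice. The groups overlapped: control replicates 2 and 3 lay among the AF1 peptide values, and only replicates 1 and 4 of the AF1 peptide group were below all controls. The means were 18085 ± 2403 and 15095 ± 1834 and the log2 fold change of -0.26 did not pass the test (SE 0.14, 95% interval -0.58 to 0.06, unadjusted limma p = 0.0987, adjusted p = 0.765, exact permutation p = 0.171). Without AF1 peptide replicate 1 it was -0.17 with an unadjusted limma p of 0.212.

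Fads3 showed the same arrangement of mice at a much lower count, with 1957, 1234, 1470 and 1940 in controls and 719, 1567, 1512 and 933 in AF1 peptide livers. Replicates 1 and 4 of the AF1 peptide group lay below all controls, and replicates 2 and 3 lay inside the control range. The log2 fold change was -0.53 (SE 0.25, 95% interval -1.09 to 0.03, unadjusted limma p = 0.0626, adjusted p = 0.763, exact permutation p = 0.171), and -0.31 without AF1 peptide replicate 1. It passed an unadjusted 0.05 in the absence of control replicate 2 (-0.66) or of AF1 peptide replicate 2 or 3 (-0.69 and -0.67), with unadjusted limma p from 0.0240 to 0.0347.

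Fads6 was the 1 gene of the 8 with a higher mean in AF1 peptide mice, and that direction rested on AF1 peptide replicate 1. Its counts were 2134, 1773, 1691 and 1946 in controls and 2729, 2080, 1500 and 1898 in AF1 peptide mice, so the treated mice spanned the whole control range. The log2 fold change was 0.09 (95% interval -0.27 to 0.46, unadjusted limma p = 0.580, exact permutation p = 0.686) and turned to -0.05 without that mouse.

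Elovl1, whose product builds very long saturated chains for sphingolipids, had the narrowest spread of the 8 in the AF1 peptide group, relative to its mean. Counts were 1310, 1548, 1276 and 1347 in controls and 1281, 1419, 1309 and 1299 in AF1 peptide mice. All AF1 peptide values lay inside the control range, and AF1 peptide replicate 1 was not apart from the others here. The log2 fold change was -0.04 (95% interval -0.25 to 0.16, unadjusted limma p = 0.652, exact permutation p = 0.60), was -0.03 without AF1 peptide replicate 1, and turned to 0.02 without control replicate 2. An exon of Elovl1 overlaps Cdc20 on the opposite strand, as one of Elovl3 overlaps Pitx3, and the strand setting of the read counting is not given in the sources used here.

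Elovl3, a gene known for its strong circadian and sex-dependent expression in mouse liver, had the fewest reads. Counts were 425, 318, 221 and 240 in controls and 97.05, 354, 170 and 405 in AF1 peptide mice, the widest relative spread of the 8 in the treated group. The treated mice were split, with replicates 1 and 3 below all controls and replicates 2 and 4 among them. The log2 fold change of -0.40 had an interval from -1.31 to 0.51 (unadjusted limma p = 0.354, exact permutation p = 0.486) and was -0.01 without AF1 peptide replicate 1.

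**Figure D2:**
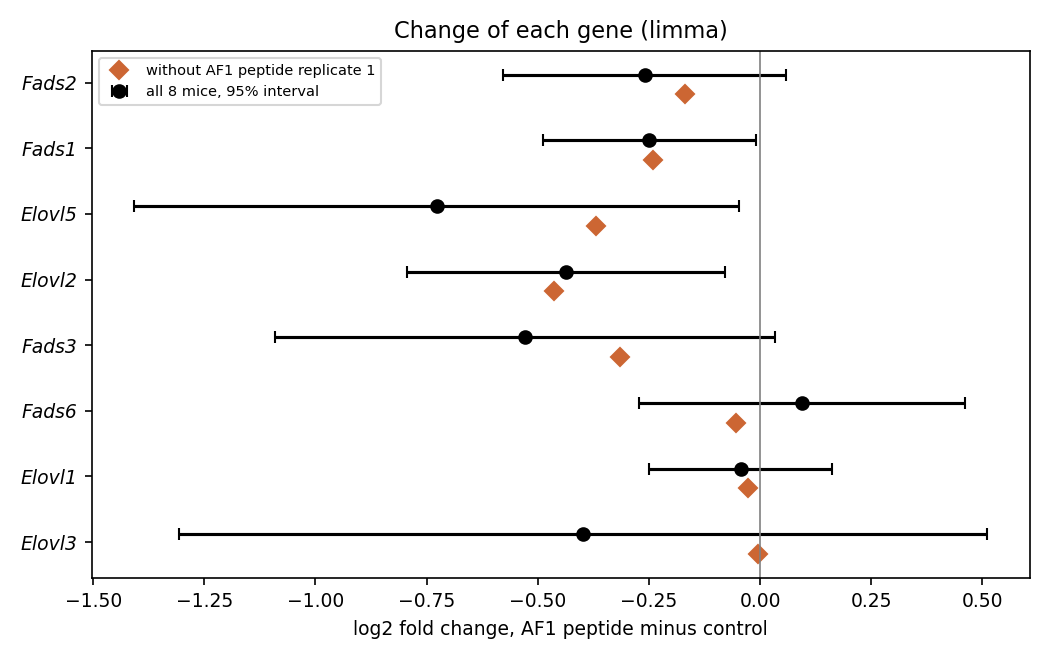
Log2 fold change of each gene, AF1 peptide minus control, from limma on log2(count + 1), with black points and bars for all 8 mice and their 95% intervals and orange diamonds for the value without AF1 peptide replicate 1. The intervals of Elovl2, Elovl5 and Fads1 lie below 0, and without that mouse Elovl5 moves from -0.73 to -0.37, Elovl3 from -0.40 to -0.01 and Elovl2 only from -0.44 to -0.46.

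To compare levels between genes, counts were divided by the length of the longest annotated transcript. In control livers Elovl5 was the most abundant of the 8, at 9958 ± 793 normalized reads per kilobase (44.5% of the sum of the 8 genes), followed by Fads2 at 5741 ± 763 (25.6%) and Fads1 at 3957 ± 269 (17.7%). The enzymes of the shared early steps of the polyunsaturated route thus headed the order in these livers. Elovl2 followed at 986, then Elovl1 at 757, Fads3 at 448, Fads6 at 381 and Elovl3 at 160. The ranges of Elovl2 and Elovl1 overlapped in controls, as did those of Fads3 and Fads6, and no other neighbours in the order did. In AF1 peptide livers the first 3 places were kept, with Elovl5 at 6541 ± 2699, Fads2 at 4792 ± 582 and Fads1 at 3329 ± 213, but the ranges of Elovl5 and Fads2 now overlapped. Elovl1 (733) stood above Elovl2 (715) and Fads6 (414) above Fads3 (321) there, and both pairs overlapped, so neither exchange exceeds the spread between mice.

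**Figure D3:**
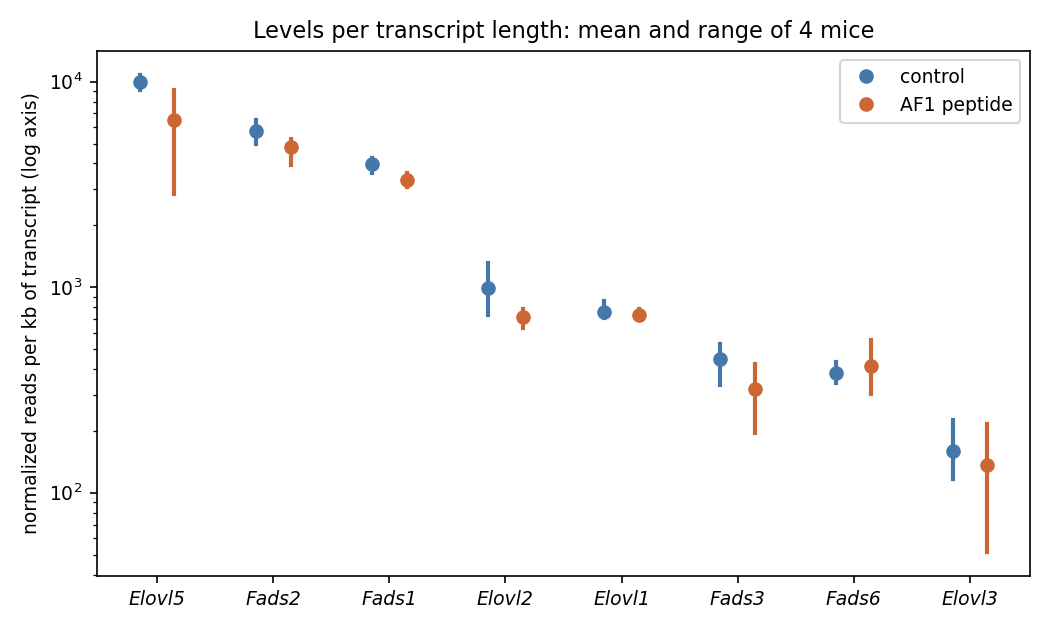
Level of each gene as normalized reads per kilobase of its longest transcript, on a log axis, with the mean as a point and the lowest to highest of 4 mice as a line for control (blue) and AF1 peptide (orange). Elovl5, Fads2 and Fads1 lie at 2847 or above in every mouse and the other 5 genes at 1317 or below, and the Elovl5 line of the AF1 peptide group reaches from 2847 to 9075.

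The summed level of the 8 genes was 24170, 20640, 20700 and 24040 normalized reads per kilobase in controls and 12320, 19970, 17420 and 18220 in AF1 peptide mice. Each AF1 peptide mouse lay below each control, with AF1 peptide replicate 1 far below and replicate 2 close to the lowest control. In a bulk liver sample, fewer cells of a type and less RNA per cell cannot be told apart. The balance between successive enzymes was compared as ratios within a liver. The ratio of Fads1 to Fads2 per kilobase was 0.695 ± 0.0614 in controls and 0.702 ± 0.0870 in AF1 peptide mice. Elovl5 to Fads2 was 1.75 ± 0.120 and 1.33 ± 0.479, and Elovl5 to Elovl2 was 10.5 ± 2.05 and 9.26 ± 3.92. For Fads1 to Fads2, AF1 peptide replicate 1 had the highest value, 0.827, with 0.627 to 0.681 in its group mates and 0.621 to 0.764 in controls. It had the lowest values of Elovl5 to Fads2 and Elovl5 to Elovl2, 0.721 and 3.77. The other AF1 peptide mice lay at 1.21 to 1.81 and 10.1 to 13.1 there. For Elovl5 to Fads2, AF1 peptide replicates 3 and 4 also lay below every control (lowest 1.649), while replicate 2 lay inside the control range.

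Some of the genes varied together among mice after each group's mean was removed. Pearson's r on log2 counts was 0.856 for Elovl3 and Elovl5 and 0.845 for Fads2 and Fads3 over 8 mice, and 0.696 and 0.717 over the 7 without AF1 peptide replicate 1. Fads1 with Fads2 gave 0.604 and 0.714. Fads1, Fads2 and Fads3 lie together in a gene cluster on chromosome 19, and 0.152% of the 50-base words of Fads2 transcripts and 0.127% of those of Fads3 were shared between them, with 0 shared for Fads1. Other pairs depended on that mouse, since r for Fads2 and Elovl5 went from 0.706 to 0.284 without it and r for Fads6 and Elovl5 from -0.535 to 0.949. For Elovl2 and Elovl5, r was -0.007 over 8 mice and 0.425 over the 7 without that mouse. These values share libraries and size factors and rest on few mice, and they are given as a description only.

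Among 10749 genes with a mean count of at least 100, those that followed each gene most closely over the 8 mice were listed by the same centred r. Fads1 was followed by Snx13 (0.965), Ankrd26 (0.951) and Edem3 (0.950), and Fads2 by Zfp322a (0.944), Rpl39-ps (0.933) and Rreb1 (0.930). Elovl2 was followed by F8 (0.979), the coagulation factor VIII gene, then Irgm2 (0.968) and Matr3 (0.959). Ttc19 (0.994), Perp (0.982) and Slc35a3 (0.981) came first for Elovl3, and Vnn3 (0.993), Rmdn3 (0.980) and Zfp687 (0.977) for Elovl5. No gene appeared in more than 1 of these 5 lists. These values were picked as the highest among many genes over few mice and are a description only. Without AF1 peptide replicate 1, r for Rmdn3 with Elovl5 was 0.782, and the other listed pairs lay at 0.892 to 0.994. Of these neighbours, Edem3 (log2 fold change -0.39) and Zfp687 (-0.27) were lower in AF1 peptide mice at the unadjusted limma threshold, each with an exact permutation p = 0.0286. Over all tested genes 3.03% were lower at that threshold. Rmdn3 (-0.37) had the same exact permutation p but an unadjusted limma p of 0.070.

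Genes that work with the 8 enzymes were examined as lists. Of 7 other tested elongase and desaturase genes, 1 was lower and 0 were higher at an unadjusted p under 0.05, and their median log2 fold change was -0.43. The gene was Scd3, a stearoyl-CoA desaturase, with a log2 fold change of -0.76 (unadjusted limma p = 0.0444, exact permutation p = 0.114). Scd1, its abundant relative and the main enzyme making oleic acid, had 369200 to 649100 normalized reads in controls and 183900 to 503400 in AF1 peptide mice (-0.43, exact permutation p = 0.343). The median of this list depended on AF1 peptide replicate 1 and was -0.08 without it, when 0 of its genes passed. The elongation cycle enzymes and the cytochrome b5 electron donors that desaturases draw on had 0 of 11 genes past the threshold (1 lower without that mouse) and a median of -0.15 (-0.05 without it), and Cyb5a, the most abundant, stood at -0.11 (exact permutation p = 0.657).

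Enzymes that activate polyunsaturated fatty acids and place them in phospholipids had 2 of 14 genes lower, 0 higher, and a median of -0.08. Without AF1 peptide replicate 1 there were 3 lower and the median was -0.01. Acsl5, a long-chain acyl-CoA synthetase, was at 9991 to 12270 in controls and 6777 to 9255 in AF1 peptide mice (-0.43, unadjusted limma p = 0.00834, exact permutation p = 0.0286). Mfsd2a, the transporter of lysophosphatidylcholine that carries docosahexaenoic acid, was at 12840 to 15430 and 10630 to 11860 (-0.31, unadjusted limma p = 0.0161, exact permutation p = 0.0286). In both genes the groups did not overlap. Peroxisomal genes of the shortening step that completes docosahexaenoic acid had 1 of 14 lower, Ehhadh at -0.35 (unadjusted limma p = 0.0465, exact permutation p = 0.143), with 0 higher and a median of -0.12 that became -0.03 without that mouse.

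Targets of SREBP1 in fatty acid synthesis, a list that includes Elovl5, Fads1 and Fads2, had 4 of 17 tested genes lower and 0 higher, with a median of -0.26. Without those 3 genes it held 14, of which 2 were lower, with a median of -0.27 that became -0.11 without AF1 peptide replicate 1. The 2 were Fasn, fatty acid synthase, at -0.47 (39710 to 44930 in controls and 20620 to 36330 in AF1 peptide mice, unadjusted limma p = 0.0338, exact permutation p = 0.0286), and Gpam, which starts triglyceride synthesis, at -0.57 (unadjusted limma p = 0.0496, exact permutation p = 0.0286). In the absence of that mouse Fasn was at -0.28 and Gpam at -0.26, both still past the unadjusted limma threshold. Targets of PPARα had 1 of 19 lower (Ehhadh) and 1 higher (Acot3, a peroxisomal thioesterase, 0.58, unadjusted limma p = 0.0268, exact permutation p = 0.114), and their median went from -0.12 to 0.06 without that mouse. Of 20 tested regulators of these genes, 2 were lower and 0 higher, with a median of 0.02. They were Insig2, which retains the SREBP precursors in the endoplasmic reticulum (-0.74, exact permutation p = 0.0857), and Mlx, the partner of the carbohydrate response factor ChREBP (-0.37, exact permutation p = 0.0571). Insig2 was at -0.46 without AF1 peptide replicate 1. The ChREBP gene itself, Mlxipl, had the highest count of the regulators and was at 0.18 (exact permutation p = 0.229). None of these genes passed an adjusted p of 0.05. List counts with all mice are to be read against the 3.03% lower and 3.16% higher of all tested genes. List counts without AF1 peptide replicate 1 are to be read against 5.48% lower and 732 of 15989 higher in that setting.

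**Figure D4:**
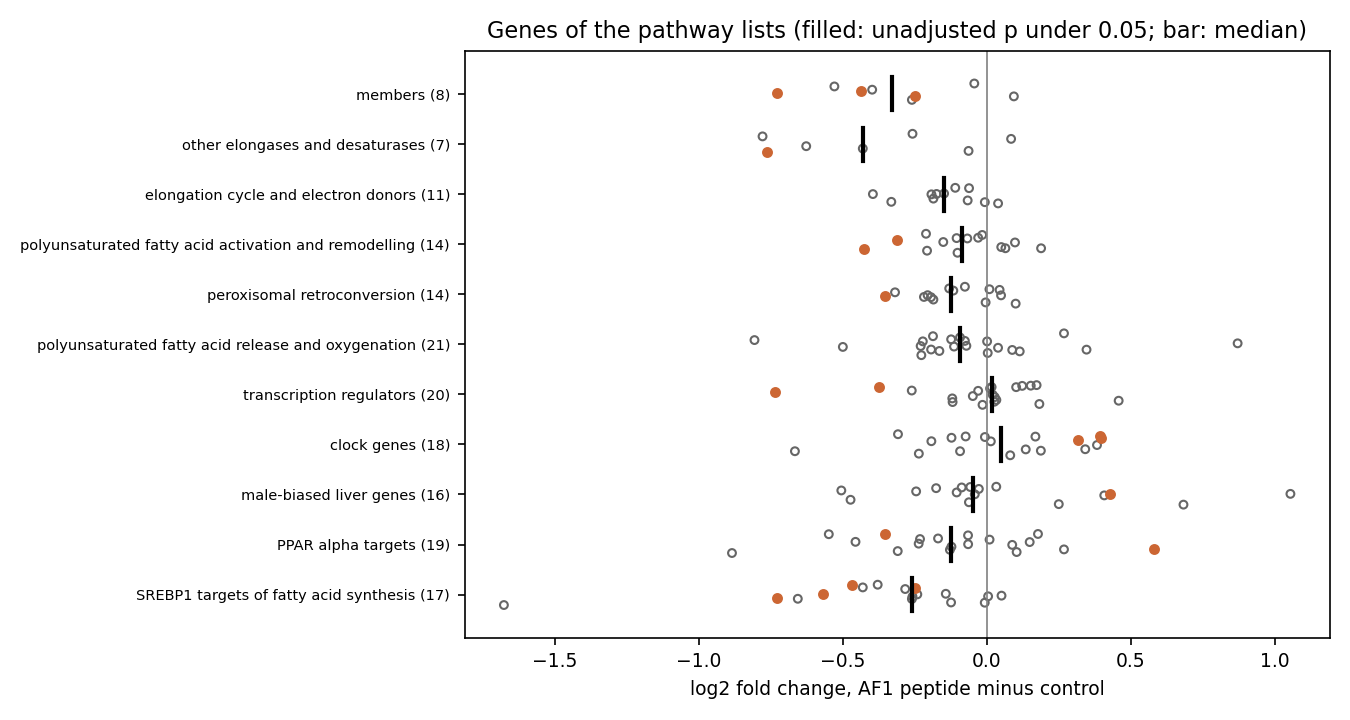
Log2 fold changes, AF1 peptide minus control, of every tested gene in each list, with 1 circle per gene, filled where the unadjusted limma p was under 0.05, a black bar at the list's median and the number of genes in parentheses. The members row is the 8 desaturase and elongase genes, with 3 filled points below 0 and a median of -0.33, and the clock genes have 3 filled points above 0.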

How the data were processed

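Liver RNA was sequenced from 4 control and 4 AF1 peptide db/db mice with a stranded mRNA kit, and each mouse was treated as 1 replicate. The authors trimmed reads with Trim Galore 0.6.7, aligned them to mm39 with HISAT2, used SAMtools 1.17 for sorting and indexing, and obtained counts from GenomicAlignments. The deposited signal is a normalized read count. Dividing by 1 step per library gave whole reads for 100% of 172256 values (tolerance 0.01 reads). The normalization tool, annotation and strand setting are not given in the sources used here. Groups came from the labels.

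The test was limma 3.58.1 with a mean trend on log2(normalized count + 1), so folds of low genes are understated, over genes with a mean of at least 10, with Benjamini-Hochberg adjustment over all of them. An unadjusted p under 0.05, the study's threshold, was the call. Two-sided exact permutation tests of the mean log2 count are given for single genes. DESeq2 1.42.0 and edgeR 4.0.16, both run on the recovered reads, other scalings, filters, pseudocounts and leaving out each mouse were alternatives. In simulated counts for AF1 peptide against control (15982 genes), 89% of 2-fold and 69% of 1.5-fold changes passed the unadjusted threshold, as did 4.92% of unchanged genes. After adjustment, 52 of 100 2-fold and 10 of 100 1.5-fold changes passed 0.05, as did 3 of 15782 unchanged genes. Each gene was drawn on its own, so a shift shared by many genes of 1 mouse was not simulated.

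The 8 genes and all lists were chosen with earlier results of these data known. Besides these 8, the text names tested list genes past the threshold (at most the 4 with the lowest p), the most abundant gene of a list, and for Fads1, Fads2, Elovl2, Elovl3 and Elovl5 the 3 genes with the highest centred r. A gene that this rule names in the clock list is not reported here. Lengths are the longest GENCODE transcript. The labels do not say more of how mice were housed or paired.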

Additional observations from a re-analysis of the deposited data

Results flagged for a closer look

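None of the 8 desaturase and elongase genes had a mouse far enough from its group to be singled out by Dixon's test at the 95% level, which was run on 20 groups of 4 values where chance gives about 1. The 1 value singled out was that of AF1 peptide replicate 1 on the leading principal component of the tested genes, whose gap to the nearest mouse of its group was 0.843 of the group's range.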

How the results depend on the processing

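Over 20 alternatives, Elovl2 had an unadjusted p under 0.05 in 17, Elovl5 in 12, Fads1 in 9 and Fads3 in 4, and each of these 4 stayed below 0 on the log2 scale in all of them. The count of 3 lower genes among the 8 became 1 with each gene's own variance and 1 with edgeR. It ranged from 0 to 3 when 1 mouse was left out, with 1 lower without control replicate 1 and 0 without control replicate 4. Of all 15989 tested genes, 453 were lower with own variance and 479 with edgeR. Without control replicate 1 there were 344 lower and without control replicate 4 there were 346, against 484 with all mice. Genes without overlap ranged from 1 to 3, with 3 (Fads1, Elovl2 and Elovl5) without control replicate 2, where 2.6% of all tested genes were lower without overlap, and 2 (Fads1 and Elovl5) without AF1 peptide replicate 2, where 3.02% were. The log2 fold change of Fads6 ranged from -0.054 (without AF1 peptide replicate 1) to 0.234 when 1 mouse was left out, and that of Elovl1 from -0.076 to 0.017 (without control replicate 2). Over all tested genes, 506 were higher and 484 lower. Equal totals gave 129 higher and 769 lower, and leaving out 1 mouse gave 285 to 732 higher and 255 to 876 lower, with 255 without control replicate 2 and 876 without AF1 peptide replicate 1. Equal totals moved the medians of the activation and remodelling list to -0.18 and of the regulators to -0.072, and turned the clock list from 0.05 to -0.04. The PPARα target median ranged from -0.175 to 0.064 when 1 mouse was left out. With the mean instead of the longest transcript length, control levels per kilobase were 24900 for Elovl5, 12380 for Fads2, 9543 for Fads1, 1330 for Elovl1, 1086 for Fads3 and 551 for Fads6, which placed Elovl1 and Fads3 above Elovl2 (991). DESeq2 called 3 genes of all tested at an adjusted p under 0.05, none among the 8. The causes were not tested.

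The correlation of deviations between same-numbered mice of the 2 groups was -0.06 to 0.235, with a mean of 0.10. Between mice with different numbers it was -0.27 to 0.14, with a mean of -0.03. So few pairs cannot decide whether the replicate numbers in the labels pair the mice. With the replicate block, limma called 597 genes higher and 647 lower over all genes and 2 of the 8 lower (Elovl2 and Elovl5), and Fads1 had an unadjusted p of 0.0751. With 4 mice a group, changes as small as that of Fads1 lie near the limit of what these data resolve.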

Other observations

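Lists further from the route were also counted. Over all tested genes, 3.16% were higher and 3.03% lower at an unadjusted limma p under 0.05. Without AF1 peptide replicate 1, 5.48% of all tested genes were lower and 732 of 15989 were higher. Of 18 tested clock genes, 3 were higher in AF1 peptide mice at an unadjusted limma p under 0.05 and 0 were lower. Among them, Per2 had a log2 fold change of 0.39 and Tef one of 0.32 (exact permutation p = 0.0571 and 0.0857), and the time of tissue collection was not analysed here. Without AF1 peptide replicate 1, 2 clock genes were higher and 1 lower, and the median of the list went from 0.05 to -0.05. Among 16 tested male-biased liver genes 1 was higher, the complement gene C8a (0.43, exact permutation p = 0.114), and 0 were lower, with a median of -0.05 that became 0.10 without that mouse. Of 21 tested genes that release polyunsaturated fatty acids from membranes or oxygenate them, 0 passed an unadjusted limma p of 0.05, with a median of -0.09, and without AF1 peptide replicate 1 there were 3 lower and 1 higher.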
